A study of Homo sapiens with 7 samples.

Results

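The expression of TXNIP and of the glucose-sensing circuit that controls it was examined in Huh-7 cells upon depletion of the mRNA-binding protein IGF2BP1. The 5 genes are TXNIP and ARRDC4, which are targets of the circuit, and MLXIP (which encodes MondoA), MLXIPL (which encodes ChREBP) and MLX, which encode the sensors and their partner. They were taken by symbol from the 58174 genes of the deposited table, and each symbol was found at 1 row. Huh-7 cells are an established human liver cancer line, and the series holds no other line. Total RNA was sequenced from 3 libraries of cells that received a control siRNA (siC) and 4 libraries of cells that received a pool of siRNAs against IGF2BP1 (siIGF2BP1, called siImp1 in the labels), each harvested 72 h after transfection. The labels do not say whether replicates came from separate cultures, so p-values measure the spread between these libraries, which may be technical. Each value given with ± is the mean and SD over the 3 siC or the 4 siIGF2BP1 libraries. The genes were selected on the measured rise of TXNIP in FPKM between these groups, so their levels and changes are described here without a test.

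MondoA and ChREBP are basic helix-loop-helix leucine zipper transcription factors that respond to phosphorylated glucose inside the cell. Each pairs with MLX and binds the carbohydrate response element, in which 2 E-box-like elements of the type CACGNG lie 5 bases apart. TXNIP is an alpha-arrestin that binds thioredoxin and restrains glucose uptake by promoting the internalization of glucose transporters, and ARRDC4 is its close relative. In liver, ChREBP is known for switching on glycolytic and lipogenic genes when carbohydrate is plentiful.

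To show the letters through which the circuit is known to act, promoters were taken from RefSeq (GRCh38.p14, 250 bases before to 50 bases after each annotated start). All 5 genes had an entry. Both strands were searched for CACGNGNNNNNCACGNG, a form chosen with the TXNIP element in mind, for CACGTG, which is also a form of its 6-base elements, and for CCAAT. Capitals mark the matched elements, and windows of 30 bases are written 5′ to 3′ along the gene. TXNIP is shown for the paired element, ARRDC4 and MLX for CACGTG, and BHLHE40 and G6PC3 because they hold CACGTG and changed upon depletion, as described further on.
TXNIP (chr1:145996644-145996673, minus strand): gatgtgCACGAGggcagCACGAGcctccgg
ARRDC4 (chr15:97960481-97960510, plus strand): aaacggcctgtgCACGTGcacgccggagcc
MLX (chr17:42567038-42567067, plus strand): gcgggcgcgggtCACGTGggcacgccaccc
BHLHE40 (chr3:4979187-4979216, plus strand): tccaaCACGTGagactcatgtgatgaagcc
G6PC3 (chr17:44070650-44070679, plus strand): tagccggctgccCACGTGcctgcaacagtg
TXNIP had 2 promoter entries. The paired element began 88 bases before the start in 1 of them, and the other entry held none of the forms searched. The paired element was found in 20 of 35116 promoters (0.0570%). The promoters of MLXIP and MLXIPL held neither the paired element nor CACGTG, which occurred in 7.26% of promoters. CCAAT occurred in 34.6% of promoters, with 3 matches in that of ARRDC4 and 1 each in those of MLXIP and MLX. The TXNIP entry with the paired element held 2. Of the other pathway genes past the threshold, SLC37A4, TXNRD1, DDIT4 and FOXO3 held no CACGTG, and PNPLA3 and KLF10 had no entry. G6PC3 held a further CACGTG, not shown, in each of its 3 promoter entries. Pathway genes that did not pass were not examined for CACGTG, so a link between these letters and a change was not tested. A match describes letters and does not show binding.

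The libraries held from 12826550 to 33212205 reads on genes. IGF2BP1 itself fell from a mean of 82.2 ± 2.03 FPKM in siC to 15.8 ± 0.583 FPKM after depletion. On the log2 scale this change was -2.37 (limma adjusted p = 1.16e-05). FPKM divides the reads of a gene by its length and by the reads of its library, here scaled by a TMM normalization factor. Comparing the levels of different genes thus rests on that length, here the summed exon length. For MLX it was 4259 bases against 2360 of its canonical transcript, and for TXNIP 3625 against 2905. Which transcripts the cells made was not examined. The TMM factor ran from 0.964 to 0.984 in siC and from 1.012 to 1.028 in siIGF2BP1. The summed level of 8 hepatocyte markers, albumin and alpha-fetoprotein among them, ran from 5588 to 6925 FPKM in siC and from 6352 to 6511 FPKM in siIGF2BP1. The most abundant, AFP, was at 3151 ± 469 FPKM in siC against 2740 ± 71.2 FPKM in siIGF2BP1, and its log2 change of -0.19 (limma adjusted p = 0.450) was 0.33 after quantile normalization and -0.32 without siC replicate 3 (adjusted p = 0.0112). Of 6 markers of blood, vessel and connective tissue cells, PTPRC, CD68 and COL1A1 lay at or below 10 reads in each library. PECAM1 was detected at 2.81 ± 0.235 FPKM in siC against 3.01 ± 0.189 FPKM in siIGF2BP1. COL1A2 was at 1.03 ± 0.274 FPKM in siC against 1.29 ± 0.155 FPKM in siIGF2BP1. Their log2 changes were 0.097 and 0.33 (limma adjusted p = 0.590 and 0.437). The sum of the 6 ran from 151 to 167 FPKM in siC and from 117 to 133 FPKM in siIGF2BP1, mostly LYZ. No gene of either list passed the limma threshold (0 of 8 and 0 of 3 tested, 0 with voom), with 3 and 1 at an unadjusted p under 0.05. After quantile normalization 1 gene of the hepatocyte list passed as higher. The median log2 change of that list was then 0.31, against 0.11 before. Without siC replicate 3, TTR (log2 change -0.71) and TF (0.51) of the hepatocyte list passed, with limma adjusted p = 0.00448 and 0.000712. LYZ was at 157 ± 8.67 FPKM in siC against 122 ± 6.96 FPKM in siIGF2BP1 (log2 change -0.37, limma adjusted p = 0.0222), and it passed the threshold without siC replicate 3 (adjusted p = 0.00503). The part of these cell types in the results was not tested. Of the 7 libraries, siC replicate 3 deviated most from the mean of its group. The deviation of its genes from the siC mean had an SD of 0.466 on the log2 scale, against 0.346 and 0.296 in siC replicates 1 and 2, and followed GC content with a Spearman's rho of -0.427 across 14711 genes, which are not independent. Deviations from a group mean cancel out within the group, so the rho of 0.435 for siC replicate 1 is no separate evidence. In the other group the rho was -0.386 for siIGF2BP1 replicate 2. These values cannot decide which library of a group holds the trend with GC content. Between siC libraries, the chi-square per degree of freedom was 56.8 and 53.6 for pairs with replicate 3. It was 3.11 between siC replicates 1 and 2, and ran from 1.99 to 9.81 within siIGF2BP1. For the pathway genes named here, the change without siC replicate 3 is also given in some cases. These are the cases where its absence turned the sign, altered a call or moved the value by over 1.5 times.

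TXNIP was the member with the largest change. Its level was 5.67, 5.51 and 4.75 FPKM in siC replicates 1 to 3, and 23.2, 23.2, 23.6 and 23.9 FPKM in siIGF2BP1 replicates 1 to 4. The lowest siIGF2BP1 library thus lay far above the highest siC library, and the 4 siIGF2BP1 libraries differed by less than 1 FPKM from each other. The mean was 5.31 ± 0.493 FPKM in siC and 23.5 ± 0.338 FPKM in siIGF2BP1, or 4.42-fold. On the scale of log2(FPKM + 0.1), the change was 2.13 (SE 0.0738, 95% interval from 1.95 to 2.30). With 1 library left out at a time it ran from 2.05, without siC replicate 3, to 2.18. Of the 10672 protein-coding genes tested, 7 had a larger rise. In siC, 35.9% of these genes had a lower level than TXNIP, and in siIGF2BP1 82.9% did. From 237 to 1578 reads per library lay on TXNIP (ENSG00000265972, GRCh38 chromosome 1, 145992435 to 145996579, minus strand, 8 exons), and no annotated gene overlaps it. In such bulk RNA, a larger share of cells that contain a transcript and more of it per cell cannot be told apart.

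**Figure D1:**
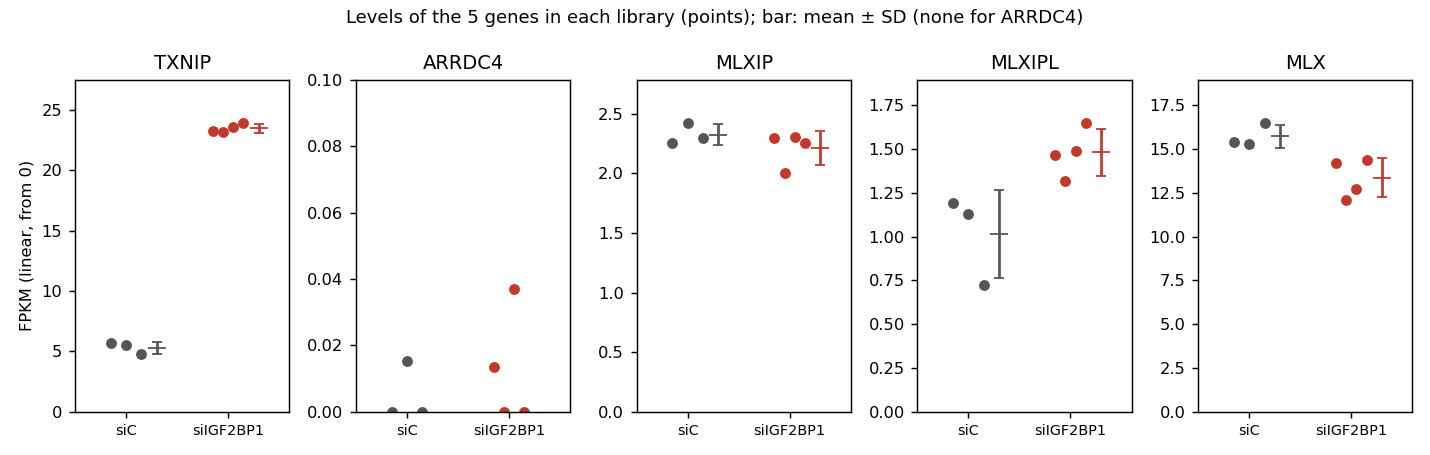
FPKM (vertical axes, linear and starting at 0, with a scale of its own for each gene) of TXNIP, ARRDC4, MLXIP, MLXIPL and MLX in each siC (grey, n = 3) and siIGF2BP1 library (red, n = 4). Points are libraries and bars the mean ± SD, left out for ARRDC4, which has at most 2 reads per library. The 4 siIGF2BP1 libraries of TXNIP sit between 23.2 and 23.9 FPKM, above the 3 siC libraries at 4.75 to 5.67 FPKM, while the values of MLXIP overlap.

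ARRDC4, the other alpha-arrestin known as a direct target of MondoA and ChREBP, was hardly present. It had 0, 2 and 0 reads in siC replicates 1 to 3 and 1, 0, 2 and 0 reads in siIGF2BP1 replicates 1 to 4. The highest of these values was 0.0371 FPKM, in siIGF2BP1 replicate 3. Where no read was found, the depth allows a level of up to 0.0337 and 0.0535 FPKM in siC replicates 1 and 3 and up to 0.0393 and 0.0568 FPKM in siIGF2BP1 replicates 2 and 4, taking 3 reads as the limit and counting error only. No fold change is given, since both groups lie at or under this limit. ARRDC4 (ENSG00000140450, chromosome 15, 97960703 to 97973833, plus strand) did not reach the mean of 1 FPKM required for the fit. A difference between the groups was not detectable at this depth.

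Of both sensors, MLXIP (MondoA) had the smaller difference between the groups. Its level was 2.25, 2.42 and 2.30 FPKM in siC replicates 1 to 3, and 2.30, 2.0, 2.30 and 2.25 FPKM in siIGF2BP1 replicates 1 to 4. These values overlap, and only siIGF2BP1 replicate 2 lay below all siC libraries. The mean was 2.32 ± 0.0864 FPKM in siC against 2.21 ± 0.145 FPKM in siIGF2BP1, and the log2 change of -0.069 had a 95% interval from -0.30 to 0.16. MLXIP (ENSG00000175727, chromosome 12, 122078756 to 122147344, plus strand, 17 exons) was covered by 407 to 1078 reads per library. Its summed exon length in the table, 13905 bases, is the longest of the 5 genes.

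MLXIPL (ChREBP), the sensor best known from liver, was the less abundant of both sensors in every library. Its level was 1.19, 1.13 and 0.724 FPKM in siC replicates 1 to 3, and 1.47, 1.32, 1.49 and 1.65 FPKM in siIGF2BP1 replicates 1 to 4. The groups did not overlap, but siC replicates 1 and 2 lay close to the siIGF2BP1 libraries, and the low value of siC replicate 3 rests on 48 reads (95% Poisson interval from 0.534 to 0.960 FPKM). The mean was 1.01 ± 0.253 FPKM in siC against 1.48 ± 0.135 FPKM in siIGF2BP1. The log2 change was 0.53 (95% interval from 0.036 to 1.02), and 0.32 without siC replicate 3. With a GC content of 63.3%, its transcript was the richest in G and C among the 5 genes, and the log2 change was 0.56 after each library's trend with GC content had been removed. MLXIPL (ENSG00000009950, chromosome 7, 73593194 to 73624543, minus strand, 17 exons) shares its strand with an overlapping long non-coding RNA (ENSG00000274080) at 1.04 ± 0.319 FPKM in siC against 1.88 ± 0.399 FPKM in siIGF2BP1, so reads may be divided between them.

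MLX, the obligate partner of both sensors, was the most abundant of the 5 genes in siC. Its level was 15.4, 15.3 and 16.5 FPKM in siC replicates 1 to 3, and 14.2, 12.1, 12.7 and 14.3 FPKM in siIGF2BP1 replicates 1 to 4. All 4 siIGF2BP1 libraries lay below the 3 siC libraries, by less than 1 FPKM for the nearest ones. The mean was 15.7 ± 0.664 FPKM in siC against 13.4 ± 1.11 FPKM in siIGF2BP1, or 84.9% of siC, with a log2 change of -0.24 (95% interval from -0.43 to -0.048). MLX (ENSG00000108788, chromosome 17, 42567072 to 42573239, plus strand, 8 exons) overlaps PSMC3IP on the other strand. PSMC3IP was at 3.54 ± 0.559 FPKM in siC against 2.89 ± 0.155 FPKM in siIGF2BP1, and whether reads were assigned by strand is not given in the sources used here.

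The order of levels in FPKM, which rests on the summed exon lengths, changed at the top. In each of the 3 siC libraries it was MLX, TXNIP, MLXIP, MLXIPL and ARRDC4, and in each of the 4 siIGF2BP1 libraries TXNIP stood before MLX, with the rest unaltered. The ratio of TXNIP to MLX in FPKM was 0.339 ± 0.0442 in siC and 1.77 ± 0.139 in siIGF2BP1. The ratio of MLXIP to MLXIPL was 2.40 ± 0.678 in siC, where replicate 3 reached 3.17, and 1.5 ± 0.0896 in siIGF2BP1. Neighbours in this order were separated in every library, those nearest to each other being MLXIP and MLXIPL in siIGF2BP1 replicate 4, at a ratio of 1.37.

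**Figure D2:**
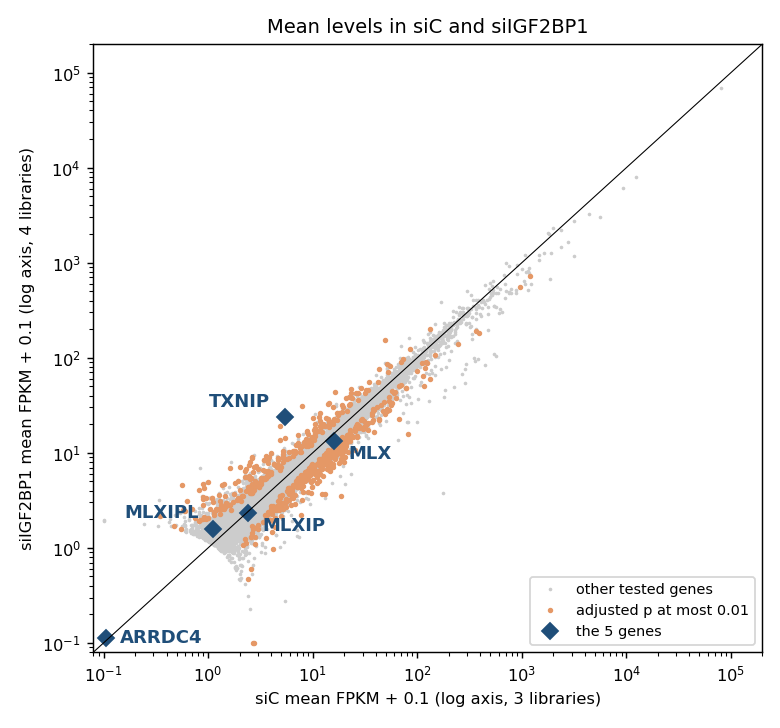
Mean FPKM + 0.1 in siC (horizontal, 3 libraries) against siIGF2BP1 (vertical, 4 libraries), both log axes, for the 14839 genes tested (grey, or orange where the limma adjusted p is at most 0.01) and the 5 genes (blue diamonds). The line marks equal levels. TXNIP stands far above it, MLX, MLXIP and MLXIPL lie close to it, and ARRDC4 is in the corner of genes near 0.

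For comparison, limma was fitted to the 14839 genes whose mean reached 1 FPKM, and 583 of them (3.93%) passed an adjusted p of 0.01, 338 lower (2.28%) and 245 higher (1.65%). After quantile normalization 260 were lower and 279 higher. Of the 4 members in this fit, 1 was among the 583, namely TXNIP. The values of both groups did not overlap for 3 of these 4 members, and for 27% of all genes tested. Since the members were chosen with this comparison known, these counts are no evidence about them.

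The genes whose profile over the 7 libraries was most like that of TXNIP included TM4SF4, S1PR1, UGT1A1 and HAMP. Likeness was the root-mean-square difference of log2(FPKM + 0.1), each gene set against its own siC mean, among 10671 other protein-coding genes. It was 0.122 for TM4SF4, a tetraspan membrane protein, which rose from 4.74 ± 0.645 FPKM to 19.1 ± 0.586 FPKM. It was 0.148 for S1PR1, a sphingosine-1-phosphate receptor, which rose from 0.811 ± 0.135 to 4.11 ± 0.582 FPKM. UGT1A1, which conjugates bilirubin, and the iron hormone HAMP followed with 0.170 and 0.180, but UGT1A1 shares its strand and exons with other UGT1A genes. These genes were picked for their likeness to TXNIP, and their rises are no separate support.

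Other known targets of MondoA and ChREBP were then examined. Of 23 such genes, 15 reached the filter, and 3 of these rose while 12 did not pass the threshold. The median log2 change of the 15 was 0.19, against -0.017 for all genes tested, and 1.65% of all genes tested were called higher. Without siC replicate 3 the median of the 15 was 0.018, and 4 rose, with MTTP as the further gene (log2 change 0.24, limma adjusted p = 0.00962). Calls over all genes also increased without that library, to 533 higher and 988 lower of 14697. BHLHE40, a circadian and hypoxia-linked repressor, was at 8.82, 9.56 and 7.97 FPKM in siC and at 16.6, 17.4, 16.4 and 16.8 FPKM in siIGF2BP1. Its rise of 0.93 on the log2 scale (SE 0.0737, limma adjusted p = 0.000873) passed whichever of the 7 libraries was left out. KLF10, a Kruppel-like repressor induced by TGF-beta, rose from 3.62 ± 0.184 FPKM to 5.80 ± 0.141 FPKM (log2 change 0.67, limma adjusted p = 0.00179). It no longer passed without siC replicate 1 or 2 (adjusted p = 0.0104 and 0.0115) or without siIGF2BP1 replicate 1, 3 or 4 (adjusted p = 0.0127, 0.0116 and 0.0102). PNPLA3, a lipid-droplet protein of hepatocytes, rose from 5.62 ± 0.496 FPKM to 8.56 ± 0.659 FPKM (log2 change 0.60, limma adjusted p = 0.00790). When 1 library at a time was left out, PNPLA3 passed only without siC replicate 3, with an adjusted p between 0.0204 and 0.0397 otherwise, and it missed the threshold without a filter (0.0168) and after removal of the GC trend (0.0172). It overlaps SAMM50 on its own strand, which did not pass (limma adjusted p = 0.822).

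The enzymes of lipogenesis did not pass the threshold. The most abundant of them, the desaturase SCD, was at 497 ± 47.9 FPKM in siC against 611 ± 49.1 FPKM in siIGF2BP1 (log2 change 0.30, limma adjusted p = 0.130). Fatty acid synthase (FASN) was at 230 and 203 FPKM in siC replicates 1 and 2 but at 92.7 FPKM in replicate 3, and its log2 change of 0.27 (95% interval from -0.43 to 0.97) was -0.14 without that library. ATP citrate lyase (ACLY) had a log2 change of -0.029 with an interval from -0.17 to 0.11, and -0.066 without siC replicate 3. The other 8 targets did not reach a mean of 1 FPKM. Among these were the liver pyruvate kinase PKLR, a textbook target of ChREBP, with 0 to 4 reads per library, as well as G6PC and FGF21. Apart from RGS16, none of these 8 exceeded 0.220 FPKM or 12 reads in a library.

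The list of glucose entry and glucose 6-phosphate metabolism, the signal that both sensors read, held 14 genes. Of these 8 were tested, 1 rose, 1 fell and 6 did not pass the threshold. Over all genes tested, 1.65% rose and 2.28% fell. The median log2 change of the list was 0.27, against -0.017 for all genes tested. Without siC replicate 3, where calls increased over all genes (533 higher), 3 of the list were higher. Both genes that passed act on the removal of glucose 6-phosphate in the endoplasmic reticulum. SLC37A4, which carries glucose 6-phosphate into that compartment, was at 9.13, 8.83 and 8.62 FPKM in siC and at 3.76, 3.42, 4.10 and 3.80 FPKM in siIGF2BP1, or 42.5% of siC. Its log2 change was -1.21 (SE 0.0768, limma adjusted p = 0.000477), and it passed whichever of the 7 libraries was left out. G6PC3, the broadly expressed phosphatase, was at 8.29, 7.83 and 8.09 FPKM in siC and at 12.8, 11.8, 12.3 and 12.5 FPKM in siIGF2BP1. Its log2 change was 0.61 (SE 0.0577, limma adjusted p = 0.00147). It no longer passed without siC replicate 2 (adjusted p = 0.0128) or without siIGF2BP1 replicate 1, 3 or 4 (adjusted p = 0.0112, 0.0104 and 0.0108). SLC37A4 overlaps TRAPPC4 and G6PC3 overlaps HDAC5 on the other strand, and neither of these overlapping genes passed the threshold (limma adjusted p = 0.830 and 0.196).

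Over all 7 libraries the highest mean FPKM of this list was that of PFKFB3, which makes the activator of phosphofructokinase, while HK2 was higher in siC. This order rests on summed exon lengths of 6114 and 6064 bases, where the canonical transcripts have 4482 and 5626 bases. PFKFB3 was at 26.1, 24.3 and 18.5 FPKM in siC and at 35.9, 34.4, 39.1 and 37.2 FPKM in siIGF2BP1, without overlap. Its log2 change of 0.69 missed the threshold (limma adjusted p = 0.0147) and passed it without siC replicate 3 (log2 change 0.54, adjusted p = 0.00271) and with voom, quantile normalization or removal of the GC trend. Further genes named after their values were seen are the glucose transporter SLC2A1, on which TXNIP protein acts, and the hexokinases. SLC2A1 was at 14.1 ± 2.53 FPKM in siC against 19.8 ± 0.392 FPKM in siIGF2BP1 (log2 change 0.51, limma adjusted p = 0.0399), and it passed without siC replicate 3 (log2 change 0.35, adjusted p = 0.00260). HK2 was the most abundant hexokinase at 27.4 ± 5.80 FPKM in siC against 32.6 ± 0.851 FPKM in siIGF2BP1 (log2 change 0.27, limma adjusted p = 0.279). HK2 was lowest in siC replicate 3, at 20.8 FPKM, and its log2 change was 0.088 when that library was left out. HK1 was at or below 0.182 FPKM.

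**Figure D3:**
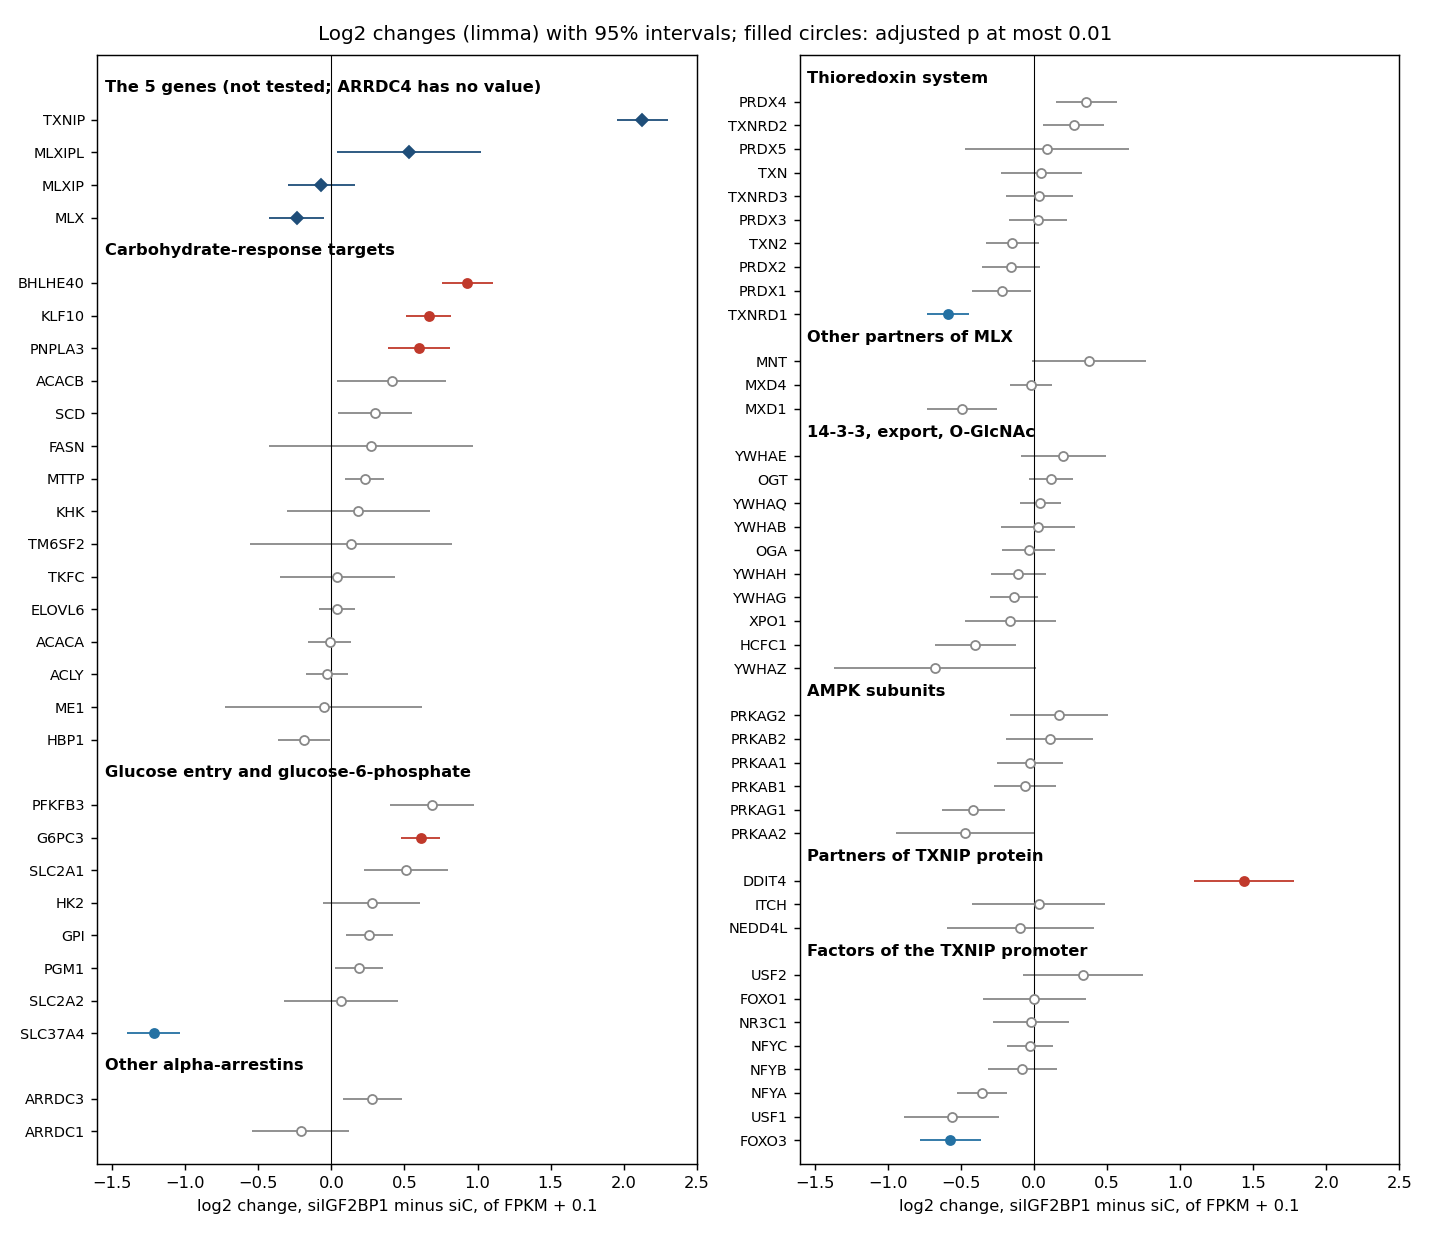
Log2 change (horizontal, siIGF2BP1 minus siC, of FPKM + 0.1) with 95% intervals from limma for the members that could be fitted (blue diamonds, not tested) and the 65 tested genes of the 9 lists around them. Filled circles passed an adjusted p of 0.01 (red higher, blue lower) and open circles did not. TXNIP at 2.13 lies beyond all list genes, of which DDIT4 is highest at 1.44 and SLC37A4 lowest at -1.21.

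The remaining alpha-arrestins ARRDC1, ARRDC2, ARRDC3 and ARRDC5 gave 2 tested genes and 0 calls (limma; 1 gene at an unadjusted p under 0.05, and 0 calls with voom). ARRDC3, an adaptor in receptor and transporter turnover, was the most abundant at 17.2 ± 1.93 FPKM in siC against 20.8 ± 0.905 FPKM in siIGF2BP1. Its log2 change was 0.28 (95% interval from 0.078 to 0.48, limma adjusted p = 0.0856), and without siC replicate 3 it was 0.37 and passed the threshold (adjusted p = 0.00666), as it did after removal of the GC trend (0.00963). ARRDC1 had a log2 change of -0.21 (limma adjusted p = 0.413), which was -0.32 without siC replicate 3. ARRDC2 stayed at or below 0.303 FPKM and ARRDC5 had 0 reads. TXNIP was thus the alpha-arrestin with the highest level in siIGF2BP1, whereas ARRDC3 was the highest in siC.

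In the thioredoxin system, whose reduced thioredoxin is what TXNIP binds, all 10 genes were tested, 1 fell and 9 did not pass. Over all genes tested, 2.28% fell. The median log2 change of the list was 0.034, and -0.090 without siC replicate 3. There PRDX4 also rose (log2 change 0.27, limma adjusted p = 0.00966), as 533 genes did over all genes. With all libraries the log2 change of PRDX4 was 0.36 (limma adjusted p = 0.0420). TXNRD1, the cytosolic thioredoxin reductase, was at 121, 121 and 110 FPKM in siC and at 79.8, 76.2, 79.1 and 76.8 FPKM in siIGF2BP1. It fell by 0.59 on the log2 scale (SE 0.0611, limma adjusted p = 0.00213). With 1 library left out at a time it passed only without siC replicate 3, and the adjusted p otherwise lay between 0.0113 and 0.0160. Thioredoxin itself (TXN) was at 201 ± 31.7 FPKM in siC against 207 ± 10.8 FPKM in siIGF2BP1, with a log2 change of 0.050 (95% interval from -0.23 to 0.33) that was -0.088 without siC replicate 3. The most abundant gene of the list, the peroxiredoxin PRDX1, was at 487 ± 32.8 FPKM in siC against 418 ± 23.9 FPKM in siIGF2BP1 (log2 change -0.22, limma adjusted p = 0.157), and its log2 change was 0.065 after quantile normalization.

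Of 4 genes whose proteins act on or with TXNIP protein, 3 were tested and 1 rose (1.65% of all genes tested did). DDIT4, a stress-induced inhibitor of mTORC1 that binds TXNIP, was at 17.7, 18.7 and 12.5 FPKM in siC and at 43.5, 41.0, 42.0 and 48.2 FPKM in siIGF2BP1. Its log2 change was 1.44 (SE 0.144, limma adjusted p = 0.00184), and DDIT4 no longer passed without siIGF2BP1 replicate 1, 3 or 4 (adjusted p = 0.0115, 0.0103 and 0.0104). The ubiquitin ligases ITCH and NEDD4L, which mark TXNIP for degradation, had log2 changes of 0.032 and -0.092 with 95% intervals from -0.42 to 0.49 and from -0.59 to 0.41. Without siC replicate 3 these changes were 0.27 and 0.17. The inflammasome sensor NLRP3 had 1 read in all.

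Among 9 transcription factors reported at the TXNIP promoter, 8 were tested, 1 fell and 7 did not pass (median log2 change -0.054). Over all genes tested, 2.28% fell. Without siC replicate 3 the median was -0.12 and 3 fell, FOXO3, NFYA and the E-box factor USF1. Over all genes 988 then fell. The log2 change of USF1 was -0.56 with all libraries (limma adjusted p = 0.0430) and -0.73 without siC replicate 3 (adjusted p = 0.00203). FOXO3, a forkhead factor held back by insulin signalling, was at 9.22, 9.83 and 11.1 FPKM in siC and at 7.22, 7.0, 6.28 and 6.40 FPKM in siIGF2BP1. It fell by 0.57 on the log2 scale (SE 0.0889, limma adjusted p = 0.00904). With 1 library left out at a time FOXO3 passed only without siC replicate 3 (adjusted p from 0.0206 to 0.0389 otherwise), and it missed the threshold without a filter (0.0188), after quantile normalization (0.0110) and after removal of the GC trend (0.0105). The most abundant factor, the CCAAT-binding subunit NFYA, was at 26.9 ± 2.36 FPKM in siC against 20.9 ± 0.687 FPKM in siIGF2BP1 (log2 change -0.36, limma adjusted p = 0.0234), and NFYA passed without siC replicate 3 (log2 change -0.29, adjusted p = 0.00722).

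**Figure D4:**
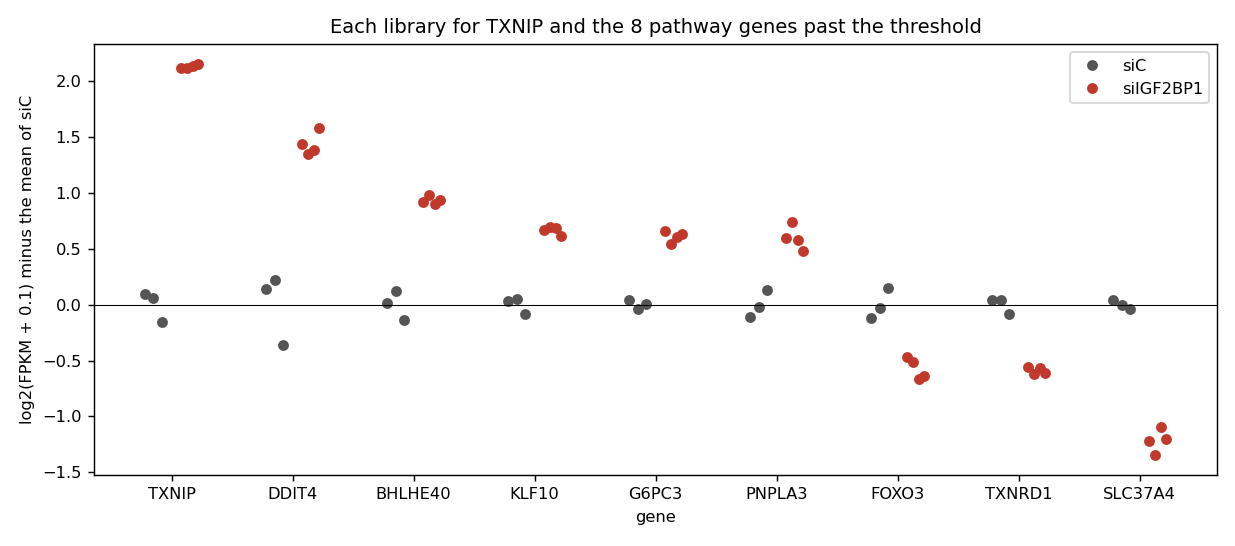
Log2(FPKM + 0.1) minus the mean of siC (vertical) in each siC (grey, n = 3) and siIGF2BP1 library (red, n = 4) for TXNIP and the 8 pathway genes past the limma threshold (horizontal). The siIGF2BP1 libraries of TXNIP lie between 2.11 and 2.15. For none of the 9 genes do the groups overlap, and the same holds for 27% of all genes tested. The 9 genes were chosen by their change in these libraries, so this is no separate evidence.

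In 3 further lists no gene passed the threshold with all libraries. The other partners of MLX (MNT, MXD1 and MXD4) gave 0 calls of 3 with limma, 1 gene (MXD1) at an unadjusted p under 0.05 and 0 calls with voom. MXD1 had a log2 change of -0.49 (95% interval from -0.73 to -0.25, limma adjusted p = 0.0243). That of MNT was 0.38 (limma adjusted p = 0.204), and 0.21 without siC replicate 3. The most abundant, MXD4, had a log2 change of -0.021 (95% interval from -0.17 to 0.12), which was above 0 after median centring, quantile normalization or removal of the GC trend and without siC replicate 1, and which was -0.064 when siC replicate 3 was left out. The 10 genes of the 14-3-3 proteins, nuclear export and O-GlcNAc cycling that handle the sensors gave 0 calls with limma, 1 gene at an unadjusted p under 0.05 and 0 calls with voom. Their most abundant member YWHAQ was at 146 ± 4.02 FPKM in siC against 151 ± 4.30 FPKM in siIGF2BP1. The 6 subunit genes of AMPK, the energy-sensing kinase that phosphorylates TXNIP and ChREBP, gave 0 calls with limma, 2 genes at an unadjusted p under 0.05 and 0 calls with voom. PRKAA1, the most abundant, had a log2 change of -0.025 (95% interval from -0.25 to 0.20), which was above 0 after median centring or quantile normalization and 0.090 without siC replicate 3. There PRKAG1 passed the threshold (log2 change -0.49, limma adjusted p = 0.00729).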

How the data were processed

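Per the labels, the study's methods and the submitters' processing notes, total RNA was freed of rRNA and turned into directional libraries, and the authors clipped reads (cutadapt 1.14), aligned them to GRCh38 (HISAT2 2.1.0), counted reads per gene (featureCounts 1.5.3, Ensembl release 89) and normalized with TMM (edgeR 3.18.1). The deposited table gives 1 FPKM value per gene and library, together with the authors' fold change, p-value and FDR, which were not used. FPKM times gene length gave whole reads for 100% of values above 0 (tolerance 0.05 reads), and hence the depth. Genes whose mean reached 1 FPKM were fitted on log2(FPKM + 0.1) with limma 3.58.1 (R 4.3.3, mean-variance trend, all 7 libraries, no covariates, two-sided, Benjamini-Hochberg, threshold 0.01). In simulated reads for siIGF2BP1 against siC (14796 genes tested), 94 of 95 genes with 4-fold and 46 of 97 with 2-fold changes were called, with 1 false call. Every gene was given the same spread between replicates (dispersion 0.02), with no trend with GC content and no deviating library. These shares therefore do not carry over to the real libraries. Coordinates and overlaps are from GENCODE 44 (GRCh38), GC content from its canonical transcripts. The members and lists were chosen with earlier results of these data known. Named are the members, in each list the genes past the threshold (at most 4 per direction) and the gene with the highest mean over the 7 libraries, and the 5 profiles most like TXNIP, of which 1 is not reported here. Any other gene was named after its values were seen. Intervals and limits from reads cover counting error only. Alternatives were the pseudocount, the filter, median centring, quantile normalization, voom on the recovered reads, removal of the trend with GC content, a replicate block and each library left out.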

Additional observations from a re-analysis of the deposited data

Results flagged for a closer look

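Within the 4 siIGF2BP1 libraries, 2 of 29 results examined held a library far from the others by Dixon's test at the 95% level, where chance gives about 1.45. For MLXIP, replicate 2 lay at 2.0 FPKM, below replicates 1, 3 and 4 at 2.30, 2.30 and 2.25 FPKM, so that the gap to the nearest library made up 0.848 of the range. Without that library the log2 change of MLXIP was -0.023. For ARRDC3, replicate 4 lay at 19.4 FPKM, below replicates 1 to 3 at 21.1, 21.3 and 21.3 FPKM, with a gap of 0.883 of the range. Groups of 3, such as siC, were left out of this examination.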

How the results depend on the processing

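The log2 changes of TXNIP (1.96 to 2.18), MLXIP (-0.12 to -0.023), MLXIPL (0.31 to 0.65) and MLX (-0.27 to -0.18) kept their sign over 14 or 15 alternatives each. That of TXNIP moved by more than its spread between replicates once, to 1.96 with a pseudocount of 1, which shrinks changes by construction. ARRDC4, at or under its limit of 3 reads, is given no value, and MLXIP and MLXIPL have none at a mean of at least 5 FPKM. With the replicate block IGF2BP1 was at -2.36 (limma adjusted p = 0.0909), and 0 genes passed, lower or higher, over all genes and in the pathway lists. In this fit siIGF2BP1 replicate 4, which has no siC library of its number, adds nothing to the change. The deviations of same-numbered libraries from their group means correlated with r = -0.0263, -0.118 and -0.111. For libraries of unlike number r ran from -0.169 to 0.201. With so few libraries, and deviations taken from each group's own mean, these values cannot decide whether the numbers pair the libraries. Without a filter 206 genes were lower and 146 higher. Removal of the GC trend gave 468 higher genes, 8 of them in the pathway lists. With 1 library left out at a time, the number of lower genes ran between 53 and 988 and that of higher genes between 66 and 533, and in the lists between 1 and 6 and between 1 and 10, with the highest counts without siC replicate 3. With voom 3 list genes were lower and 6 higher, against 3 and 5. Of the other named list genes, FASN (-0.14), TXN (-0.088) and NEDD4L (0.17) turned sign without siC replicate 3. Signs also turned for PRDX1 (0.065) and AFP (0.33) with quantile normalization, for MXD4 with median centring (0.0079), quantile normalization (0.033), GC removal (0.011) and without siC replicate 1 (-0.064 to 0.012 with 1 library left out), and for PRKAA1 with median centring (0.0042), quantile normalization (0.029) and without siC replicate 3 (-0.10 to 0.090 with 1 library left out). The cause was not tested.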

Other observations

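The paired element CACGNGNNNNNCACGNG lay in the promoters of 20 gene symbols, of which 18 were in the table and 15 were tested. TXNIP, with which this form was chosen, is not counted further. Of the other 14 tested, 1 rose (1.65% of all genes tested did). This was P4HA1, a subunit of collagen prolyl hydroxylase that was at 42.7 FPKM in siC and 77.0 FPKM in siIGF2BP1 on average (log2 change 0.85, limma adjusted p = 0.000489). The median log2 change of the 14 genes was -0.038. GFPT1, which feeds glucose carbon into amino sugars, had a log2 change of 0.48 (limma adjusted p = 0.128). Both were named after their values were seen.

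The lowest coordinate of 16 other protein-coding genes of the table lay within 300000 bases of that of TXNIP. Of these, 11 were tested and 1 passed the threshold, as did 3.93% of all genes tested. This was HFE2, the hemojuvelin gene of iron sensing, which rose from 3.07 ± 0.184 FPKM to 4.87 ± 0.433 FPKM (log2 change 0.65, limma adjusted p = 0.00659). The nearby LIX1L (0.38 on the log2 scale) and PIAS3 (0.42) did not pass (limma adjusted p = 0.0128 and 0.0312). The window was chosen after the data had been seen.

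RGS16, a regulator of G protein signalling and target of ChREBP, missed the filter. It was at 0.208, 0.322 and 0.150 FPKM in siC (5 to 25 reads) and at 0.705, 1.25, 1.03 and 0.857 FPKM in siIGF2BP1 (27 to 57 reads), without overlap.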
